A study of Mus musculus with 4 samples.

Results

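The 8 genes followed here mark connective tissue mast cells. They were measured in mammary glands of mice labelled wild-type or knockout for stathmin, a protein that destabilises microtubules. All of these mice express Δ16HER2, a variant of the human receptor HER2 made by skipping an exon. The genes were chosen by function, but with earlier results of these data known. They are the granule proteases Cpa3, Mcpt4, Cma1, Tpsb2 and Tpsab1, the IgE receptor chains Ms4a2 and Fcer1a, and the histamine-forming enzyme Hdc. A probe belonged to a member when its accession matched that gene in mouse RefSeq, which gave 8 probes for 7 of the 8 genes, out of 27816 named probes for 18952 genes on the array. Tpsab1 matched no probe and was not analysed here, and RefSeq lists it as a transcribed pseudogene in its reference genome. Cma1 had 2 probes and each other matched member had 1.

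Total mammary gland RNA of 2 stathmin knockout samples (KO 1 and KO 2, labelled STM KO) was compared with that of 2 wild-type samples (WT 1 and WT 2). All 4 came from female mice aged 13 weeks that carried the Δ16HER2 transgene, at a stage before tumours, so the transgene is common to both groups. The labels give neither the promoter of the transgene nor the kind of knockout, and do not say whether each sample was a separate animal. The p-values therefore measure only the spread between these samples. The labels call the samples epithelial, but the RNA came from mammary tissue, and markers of fat, stroma, vessels and immune cells were detected in it.

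Mast cells are tissue-resident immune cells that arise from bone marrow progenitors and mature in connective tissue, around vessels and ducts in the mammary gland. Their granules store histamine and a set of proteases bound to heparin: chymases, which cut after aromatic residues, tryptases, which cut after basic residues, and carboxypeptidase A3, which trims peptide ends. Binding of antigen to IgE on the high-affinity receptor FcεRI releases the granules. The transcription factors GATA2 and MITF maintain protease genes in mouse mast cells, and the kit receptor with its ligand stem cell factor keeps the cells alive.

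The promoters of the 3 protease genes that had an entry are shown because these genes carry the main result below and GATA2 is known to act on protease genes of mast cells. Each is a RefSeq window of build GRCm38.p6, from 250 bases before to 50 after the start used for that window. It is on the minus strand, written 5′ to 3′, with GATAA or its reverse complement in capitals. They lie at chr3:20242132-20242431 for Cpa3, chr14:56062261-56062560 for Mcpt4 and chr14:55944626-55944925 for Cma1.
Cpa3: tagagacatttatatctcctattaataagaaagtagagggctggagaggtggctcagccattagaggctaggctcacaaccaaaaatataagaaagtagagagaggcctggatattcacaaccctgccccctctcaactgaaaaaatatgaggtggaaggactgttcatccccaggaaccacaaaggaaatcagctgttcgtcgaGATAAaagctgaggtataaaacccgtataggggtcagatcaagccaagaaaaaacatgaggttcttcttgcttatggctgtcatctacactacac
Mcpt4: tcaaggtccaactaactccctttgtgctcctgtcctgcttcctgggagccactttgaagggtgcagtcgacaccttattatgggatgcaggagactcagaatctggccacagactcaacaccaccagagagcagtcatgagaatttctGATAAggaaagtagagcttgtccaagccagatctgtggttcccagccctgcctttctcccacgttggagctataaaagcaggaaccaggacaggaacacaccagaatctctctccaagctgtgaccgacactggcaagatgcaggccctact
Cma1: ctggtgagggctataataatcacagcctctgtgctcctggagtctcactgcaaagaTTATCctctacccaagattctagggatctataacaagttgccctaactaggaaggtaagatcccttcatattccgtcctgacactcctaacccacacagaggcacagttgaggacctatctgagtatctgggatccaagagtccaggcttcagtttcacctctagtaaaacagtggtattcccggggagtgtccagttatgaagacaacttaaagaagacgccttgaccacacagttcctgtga

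Promoter windows were listed for 6 of the 8 members, and Tpsb2 and Tpsab1 had no entry. GATAA, searched on both strands, was found in 5 of the 6 member windows, against 25.3% of 32544 promoter windows of the same length. It began 45 bases before the start used for the window in Cpa3, 102 before it in Mcpt4 and 194 before it, on the other strand, in Cma1. For Mcpt4 and Cma1 this start is the 5′ end of the gene span given below. For Cpa3 it lies inside the span, which ends at 20242209. Fcer1a held 1 match and Ms4a2 held 3, while the Hdc window held none. The starts used for Fcer1a, Ms4a2 and Hdc also lie inside the gene spans. For Hdc the whole window (126618629 to 126618928) does, as the span runs to 126624025. TATAAA, the core of a TATA box, stood 31 bases before the start used for Cpa3 and 32 bases before that used for Mcpt4. It was found in 3 of the 6 member windows, against 13.6% of all windows. The E-box CACATG, a form that MITF can bind, was in 1 of the 6 windows, Fcer1a, against 14.2% of all. TTCNNNGAA, the letters that STAT proteins can bind, was in 0 of the 6, against 8.33% of all. These are letter matches and no binding was measured.

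The 4 arrays lay on 1 slide and were read in 1 scan, with the KO samples at positions 3 and 4 and the WT samples at positions 1 and 2, so position and genotype cannot be told apart. Between 54.7% and 66.2% of probe spots were well above background on an array, and none was saturated. The 75th percentile of signal was 291 on KO 1 and 160 on KO 2, against 191 on WT 1 and 144 on WT 2, and levels below are log2 signals relative to that percentile. The brighter Stmn1 probe read 6865 and 1621 on the KO arrays, against 9222 and 1740 on the WT arrays, and its scaled levels overlapped between the groups. The dimmer one read 5.57 and 4.84 on the KO arrays, against 87.6 and 13.8 on the WT arrays, and was well above background on WT 1 alone. Whether either probe lies in a deleted stretch was not tested, so groups are named as labelled. KO 2 stood apart by genes of B and T cells, described further below.

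The mast cell proteases were read at lower levels on the arrays labelled KO. For Cpa3, Mcpt4, Cma1 and Tpsb2, both KO arrays lay below both WT arrays, with log2 differences (KO minus WT) from -1.03 to -0.66. On the linear scale each KO mean was 48.8% to 63.5% of the WT mean (geometric means). Both KO arrays lay below both WT arrays for 17.7% of the 13235 genes tested. No member passed the test across all genes, in which limma with Benjamini-Hochberg adjustment called 0% of genes at an adjusted p under 0.05. Unadjusted, 4 of the 5 members tested had a limma p under 0.05 and a lower KO level, against 2.4% of all genes. The median difference was -0.87 over these 5 members and -0.01 over all genes tested. In whole-gland RNA, fewer mast cells and less RNA of these genes in each cell cannot be told apart.

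The 6 probes of the 5 members tested cleared the background threshold on each of the 4 arrays, so none entered through the brighter group alone. The other 2 matched members, Ms4a2 and Fcer1a, were too dim to be tested.

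**Figure D1:**
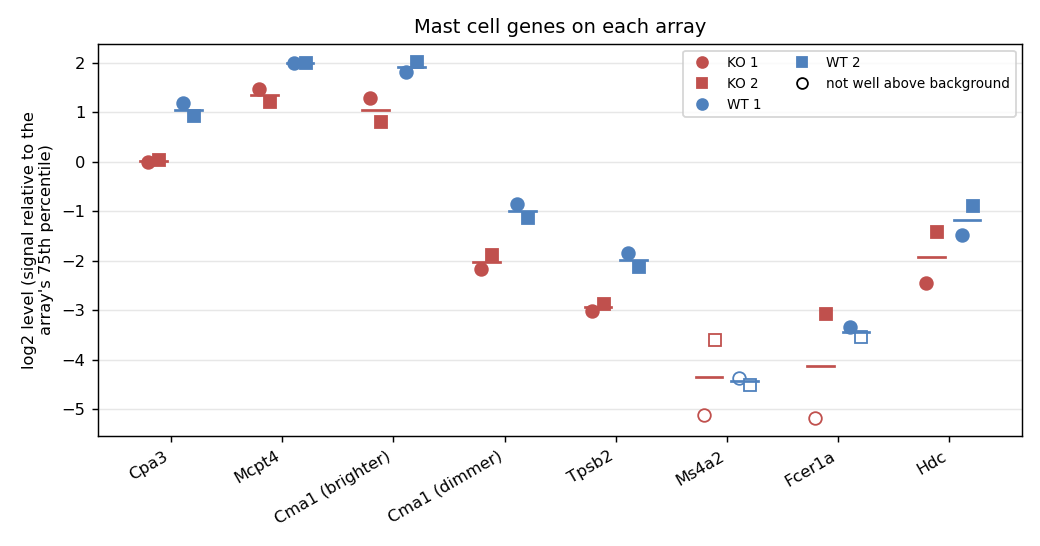
Log2 level of each mast cell gene probe, relative to the array's 75th percentile (vertical axis), for KO 1 and KO 2 (red, left in each pair) and WT 1 and WT 2 (blue, right), with bars at group means and open symbols where the probe was not well above background. The 5 protease probes have both KO arrays below both WT arrays, while Hdc, Ms4a2 and Fcer1a overlap; levels of different probes are not comparable.

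Cpa3 encodes carboxypeptidase A3, a metalloprotease of mast cell granules, and lies on chromosome 3 (20215616 to 20242209, GRCm38.p6). Its processed signals were 291 on KO 1 and 162 on KO 2, against 432 on WT 1 and 272 on WT 2. Relative to the 75th percentile these were log2 levels of 0.00 and 0.02 on the KO arrays, and of 1.17 and 0.92 on the WT arrays. The KO arrays were nearly equal, and the gap between the groups, 0.89, exceeded the gap within WT, 0.26. The log2 difference was -1.03 ± 0.25 (SE, n = 2 per group; 95% interval -1.66 to -0.41), the furthest from 0 among the members. Limma gave an unadjusted p of 0.00786 and an adjusted p of 0.935, and 71 of the 13235 genes had a smaller p.

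Tpsb2 encodes the tryptase mMCP-6, the other protease whose KO arrays nearly coincided, on chromosome 17 (25366308 to 25368096). Its signals were dim, at 35.9 and 21.8 on the KO arrays and 53.1 and 32.8 on the WT arrays. Its levels were -3.02 and -2.87 on KO arrays, against -1.85 and -2.14 on WT arrays, without overlap. The log2 difference was -0.95 ± 0.26 (SE; 95% interval -1.60 to -0.31; limma adjusted p = 0.935, unadjusted 0.0124). Tpsb2 followed Cpa3 closely from array to array under 75th percentile scaling. The log2 ratio of Cpa3 to Tpsb2, which a constant factor per array cannot move, varied by 0.16 over the 4 arrays. Ratios among the other protease pairs varied by 0.44 to 0.65. Quantile normalization and normexp are not constant factors per array, and these ranges were not computed under them. Tpsb2 has close relatives among the tryptases, Tpsab1 included, and whether the probe also reads them was not tested.

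Mcpt4 and Cma1 are the chymases of connective tissue mast cells, and both lie in the mast cell protease cluster on chromosome 14. Mcpt4 (56059744 to 56062310) encodes mMCP-4, which activates and degrades matrix proteins and peptides. Its levels were 1.46 and 1.21 on the KO arrays, against 1.98 and 1.99 on the WT arrays. The groups did not overlap, and the log2 difference of -0.66 ± 0.25 (SE; 95% interval -1.28 to -0.03; limma adjusted p = 0.935, unadjusted 0.0433) was the one nearest to 0 among the members tested. Its unscaled signal was higher on KO 1 (801) than on either WT array (757 and 575), so this order rests on the scaling.

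Cma1 (55941451 to 55944675) encodes mMCP-5, an alpha-chymase in sequence that has elastase activity in mouse. Its brighter probe read levels of 1.28 and 0.79 on the KO arrays, against 1.80 and 2.01 on the WT arrays. The log2 difference there was -0.87 ± 0.29 (SE; 95% interval -1.60 to -0.15; limma adjusted p = 0.935, unadjusted 0.0268). Its dimmer probe read -2.17 and -1.88 on the KO arrays, against -0.86 and -1.15 on the WT arrays. That probe gave -1.02 ± 0.27 (SE; unadjusted p = 0.0111), so both probes had the KO arrays lowest. They differed in which KO array was the lower: KO 2 by the brighter probe, KO 1 by the dimmer one.

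Hdc encodes histidine decarboxylase, which makes histamine, and was also lower on average but without separation of the groups. It lies on chromosome 2 (126593659 to 126624025). Its levels were -2.44 and -1.43 on the KO arrays, against -1.49 and -0.89 on the WT arrays. KO 2 lay above WT 1 by 0.05, and the arrays within the KO group differed by 1.01. The log2 difference of -0.75 ± 0.43 (SE; 95% interval -1.84 to 0.34; limma adjusted p = 0.935, unadjusted 0.140) did not exceed that spread. Other myeloid cells also make histidine decarboxylase, so its signal need not be of mast cells alone.

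The receptor chains could not be followed at this signal strength. Ms4a2 encodes the beta chain of FcεRI, which amplifies its signal, and its probe did not clear the background threshold on any of the 4 arrays. Its signals were 8.44 and 13.2 on the KO arrays, against 9.21 and 6.34 on the WT arrays. The scanner software's own error estimate was 36.6% to 77.5% of each of these signals, where it was 10.0% to 12.9% for the probes of the members tested. Fcer1a encodes the alpha chain, which binds IgE, and was well above background on KO 2 and WT 1 only. Its signals were 8.03 and 18.9 on the KO arrays, against 18.9 and 12.4 on the WT arrays. Its level on KO 2 (-3.08) was the highest of the 4 and that on KO 1 (-5.18) the lowest. Neither probe shows whether receptor transcripts differed between the groups.

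The separation of the proteases depended on scaling the arrays at all, but not on which of the scalings tried was used. In unscaled signals KO 1, the array with the highest 75th percentile, overlapped the WT arrays for all 4 proteases on their representing probes, while Hdc did not overlap. Under 75th percentile, quantile and median scaling, after normexp background correction and in the authors' deposited table, the 4 proteases had both KO arrays lowest and Hdc overlapped. The deposited table matched quantile-normalized signals, so it is not a separate scaling. Under 75th percentile scaling 17.7% of all genes had both KO arrays lowest, and this share was not computed for the other settings. Under median scaling the gap was 0.01 for Mcpt4 and for Cma1, but 0.55 for Cpa3 and 0.51 for Tpsb2. Median scaling also moved the median difference of all genes to 0.17. The members' median was -0.70 there. With normexp, run on the median spot signal, the members' median was -0.48. Tpsb2 and Mcpt4 each had -0.44 with normexp, Cma1 had -0.84 and Cpa3 had -0.91. The cause of the move with normexp was not tested.

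Leaving out 1 array at a time kept every member's difference below 0, with a median from -1.03 to -0.77. Cpa3 ran from -1.16 to -0.91 and Tpsb2 from -1.10 to -0.81, while Mcpt4 ran from -0.78 to -0.53 and Cma1 from -1.12 to -0.63. Hdc ran from -1.26 without KO 2 to -0.24 without KO 1, with -1.05 without WT 1 and -0.45 without WT 2. Its size thus depended on which array was left out in either group. Unadjusted p-values under 0.05 and a lower KO level were had by 4 of the 5 members without KO 1, against 3.72% of all genes, and by 3 without KO 2, against 6.54%. They were had by 2 members without WT 2, against 2.07% of all genes, and by 0 without WT 1, against 1.51%.

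Other proteases of mast cells and their relatives came from a list of 11 genes, each with a probe. Of these, 9 did not clear background on any of the 4 arrays, among them Mcpt1 and Mcpt2, the chymases of mucosal mast cells, and Mcpt8, a protease of basophils. Mcpt4, Cma1 and Tpsb2, which were detected, are known as proteases of connective tissue mast cells. Cma2, a neighbour of Cma1 in the chromosome 14 cluster (55950980 to 55989785), was well above background on all arrays. It read -1.05 and -2.29 on the KO arrays, against -0.29 and -0.37 on the WT arrays. Its log2 difference was -1.34 ± 0.45 (SE; limma adjusted p = 0.935, unadjusted 0.0291), lower on KO 2 than on KO 1 as with the brighter Cma1 probe and Mcpt4. Genes of this cluster are close in sequence, and cross-hybridisation among their probes was not tested. Gzmb, the granzyme of cytotoxic lymphocytes in the same cluster, had -0.10 ± 0.28.

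Receptors and growth factors of mast cells did not separate the groups as the proteases did. Of 18 genes listed, 17 had a probe and 9 were tested, and for 2 of these (Il33 and Il3ra) both KO arrays lay below both WT arrays, as for 17.7% of all genes. By the probe that represents each gene, none had an unadjusted p under 0.05. The receptor gene Kit matched no probe. Its ligand gene Kitl had -0.11 ± 0.34 (SE) on the brighter probe and -0.84 ± 0.32 on a dimmer one, so its probes disagreed, and the dimmer one alone had an unadjusted p under 0.05. Il33, an alarmin that activates mast cells, had -0.88 ± 0.43, and Il1rl1, which encodes its receptor ST2, had -0.36 ± 0.37. Ifitm1, an interferon-induced membrane protein gene, had 0.58 ± 0.44. Mrgprb1 and Mrgprb2, receptors through which basic peptides trigger connective tissue mast cells, stayed below that threshold on every array.

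Genes for IgE receptor signalling and granule storage, most of which other blood cells share, showed no common shift. Of 15 signalling genes, 11 were tested, with 5 lower and 6 higher in KO and a median of 0.10. Fcer1g, the gamma chain that mast cells share with macrophages, read 2.80 and 3.12 on the KO arrays, against 2.49 and 3.63 on the WT arrays, and so overlapped. The adaptor gene Lat had 1.71 ± 1.37 (SE) and the exchange factor gene Vav1 had 1.23 ± 0.70. Both are also expressed by T cells, and Lat was high on KO 2 alone (1.49, against -2.89 on KO 1). Of 12 granule and heparin genes, 11 were tested, and their median was 0.08. In it Srgn, the core protein that carries heparin, had 0.13 ± 0.38 and Slc18a2, the vesicular amine transporter that loads histamine, had -0.13 ± 0.34. Tph1, which starts serotonin synthesis, had 0.72 ± 0.79 and the heparan sulphate enzyme gene Hs6st2 had -0.44 ± 0.27.

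Genes that degrade or sense histamine and eicosanoid genes were likewise mixed, while most of the transcription factors tested were lower in KO. Of 7 histamine genes, 3 were tested: Hnmt, which inactivates histamine, had 0.35 ± 0.30 (SE), Aoc1, which oxidises it, had 1.11 ± 1.21, and the receptor gene Hrh1 had -0.46 ± 0.24. Hrh1 alone of them had both KO arrays below both WT arrays, at -1.80 on each KO array, against -1.34 and -1.33 on the WT arrays. The 7 of 9 eicosanoid genes tested had a median of -0.29, with the prostaglandin D synthase gene Ptgds at 0.65 ± 0.37 and the cyclooxygenase gene Ptgs1 at -0.42 ± 0.32. Of 10 transcription factors, 8 were tested, 7 of them lower in KO, with a median of -0.21. Gata2 had -0.24 ± 0.25 on its brighter probe and -0.38 ± 0.24 on the other, both with the KO arrays lowest, and Mitf had -0.28 ± 0.30. Stat5b had -0.37 ± 0.30 and Cebpa had 0.30 ± 0.41. By representing probe, none of these lists held a gene with an unadjusted p under 0.05, where 2.4% of all genes were lower and 1.14% higher by that rule. Both KO arrays lay below both WT arrays for 2 of the 11 signalling genes tested (Grb2 and Inpp5d) and 1 of the 11 granule genes (Hs6st2). The same held for 1 of 3 histamine genes (Hrh1), 0 of 7 eicosanoid genes and 1 of 8 transcription factors (Gata2), against 17.7% of all genes. Both KO arrays lay above both WT arrays for 1 of the 11 granule genes (Vamp8) and 1 of the 7 eicosanoid genes (Ptgds). In the other 3 of these lists 0 genes did, against 17.8% of all genes.

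**Figure D2:**
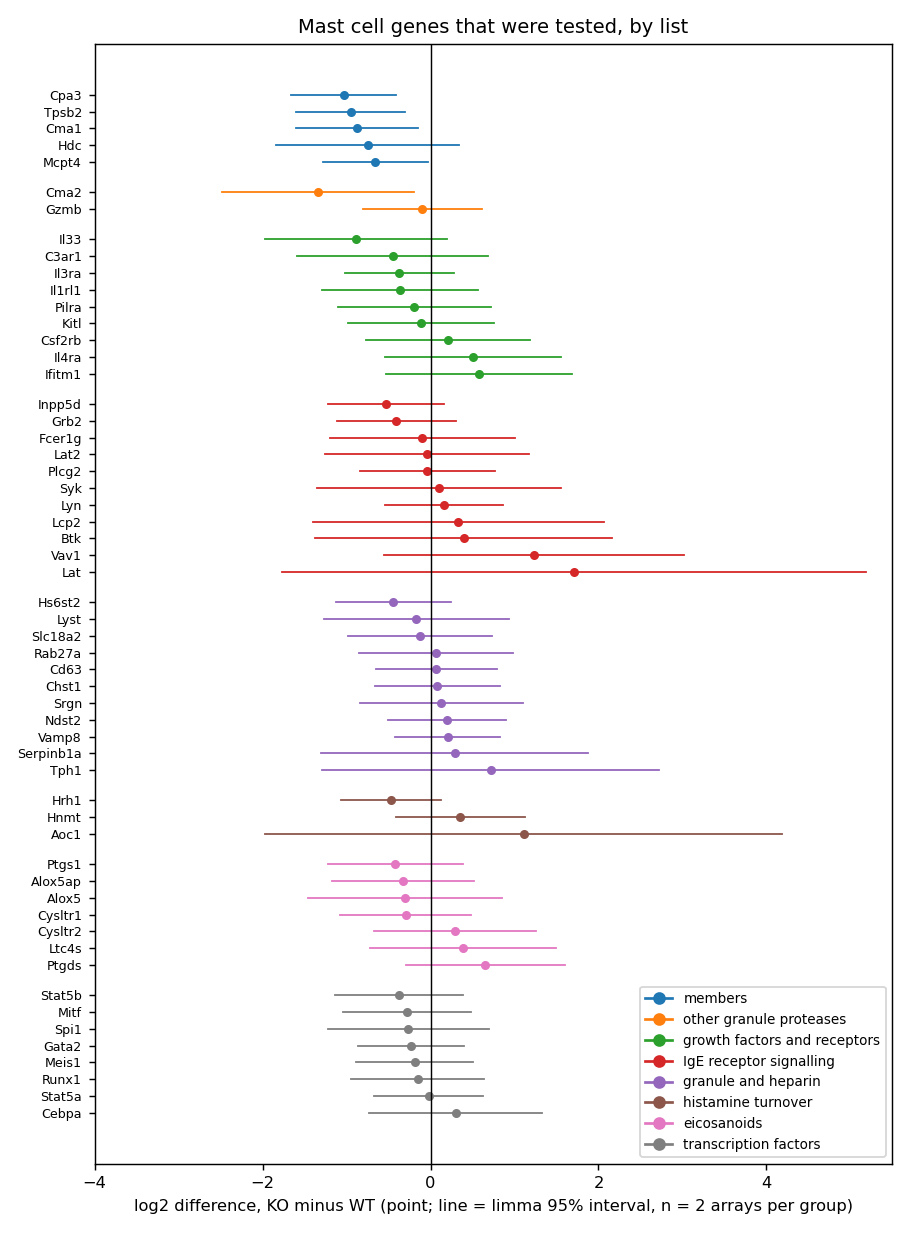
Log2 difference, KO minus WT (horizontal axis; points, with lines for limma's 95% interval, n = 2 arrays per group), of each mast cell gene tested, grouped by list. The intervals of Cpa3, Tpsb2, Cma1, Mcpt4 and Cma2 lie below 0, and those of the other genes shown include 0.

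Markers of other cell types were read beside the mast cell genes, since whole glands differ in their makeup. The summed levels of fibroblast, macrophage and endothelial genes, like those of the members, were lower on both KO arrays than on both WT arrays. The 5 members summed to 6.48 and 5.57 on the KO arrays, against 10.3 and 10.7 on the WT arrays (linear signals relative to the 75th percentile). Fibroblast genes, 13 of 13 tested, summed to 366 and 344 on the KO arrays, against 470 and 477 on the WT arrays, with 12 lower in KO and a median difference of -0.40. Macrophage genes, 16 of 17 tested, summed to 53.0 and 59.1 on the KO arrays, against 66.1 and 111 on the WT arrays, with 14 lower and a median of -0.46. Endothelial genes, 9 of 10 tested, summed to 38.8 and 32.5 on the KO arrays, against 40.8 and 43.3 on the WT arrays, with all 9 lower and a median of -0.43. Among the defining genes, the collagen gene Col1a1 had -0.66 ± 0.28 (SE), the macrophage gene Adgre1 -0.47 ± 0.27 and the vessel gene Cdh5 -0.46 ± 0.25. An unadjusted limma p under 0.05 with a lower KO level was had by 2 of the 13 fibroblast genes tested, Col3a1 and Fn1. It was had by 3 of the 16 macrophage genes: Cd163 (-1.14 ± 0.25), Clec10a (-1.07 ± 0.32) and Trem2 (-1.28 ± 0.25). Of the skeletal muscle genes 1 of 10 had it, of the endothelial genes 0 of 9 and of the luminal genes 0 of 12, against 2.4% of all genes. Both KO arrays lay below both WT arrays for 8 of 13 fibroblast, 9 of 16 macrophage and 3 of 9 endothelial genes. The same held for 4 of 10 muscle and 2 of 12 luminal genes, against 4 of the 5 members and 17.7% of all genes. Both KO arrays lay above both WT arrays for 1 fibroblast gene and for 0 macrophage, endothelial, muscle or luminal genes, against 17.8% of all genes. The mean log2 levels of luminal and skeletal muscle genes were also lower on both KO arrays, with median differences of -0.38 and -0.31, but their summed levels overlapped between the groups. Luminal genes summed to 134 and 88.8 on the KO arrays, against 126 and 153 on the WT arrays, and muscle genes to 601 and 876, against 897 and 828. The part of these cell types in the mast cell result was not tested. With levels taken relative to the fibroblast list on each array, the median of all genes moved to 0.38, and the median of the 5 members was -0.49 in place of -0.87. Cpa3 had -0.65 ± 0.27 (SE) on that scale, and the 4 proteases were lowest on both KO arrays. The share of all genes lowest on both KO arrays was not computed on that scale. None of the 5 members had an unadjusted limma p under 0.05 there, and 0.582% of all genes did with a lower KO level.

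Basophil genes were mostly undetected, with 6 of 8 below the background threshold on all 4 arrays, Mcpt8 and Prss34 included. Of the eosinophil genes 5 of 8 with a probe were also not detected on any array, the granule genes Epx and Prg2 among them. Of the 3 tested, Ear1, a ribonuclease gene of eosinophils, read -3.60 and -3.15 on the KO arrays, against -2.72 and -2.56 on the WT arrays. Its log2 difference was -0.74 ± 0.28 (SE; limma adjusted p = 0.935, unadjusted 0.0427), without overlap, as for the proteases. The receptor genes Ccr3 and Il5ra overlapped, with differences of 0.37 ± 0.41 and 0.75 ± 0.81. Neutrophil genes summed to 19.8 and 15.6 on the KO arrays, against 3.54 and 27.4 on the WT arrays, so the range within WT enclosed the KO arrays. Most of that sum came from the single gene Ltf, at log2 levels of 4.17 and 3.48 on the KO arrays, against 1.36 and 4.41 on the WT arrays. B cell genes summed to 0.57 and 24.5 on the KO arrays, against 0.76 and 0.61 on the WT arrays, and T and NK cell genes to 1.08 and 20.1, against 1.24 and 1.18. KO 2 was thus the one array rich in lymphocyte genes. Without it the members' median was -1.03 in place of -0.87, but the members moved in different directions. Hdc moved from -0.75 to -1.26, Tpsb2 from -0.95 to -1.03 and Cpa3 from -1.03 to -1.05. Mcpt4 moved nearer to 0, from -0.66 to -0.53, and so did Cma1, from -0.87 to -0.63. The part of the lymphocyte genes in the mast cell result was not tested.

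**Figure D3:**
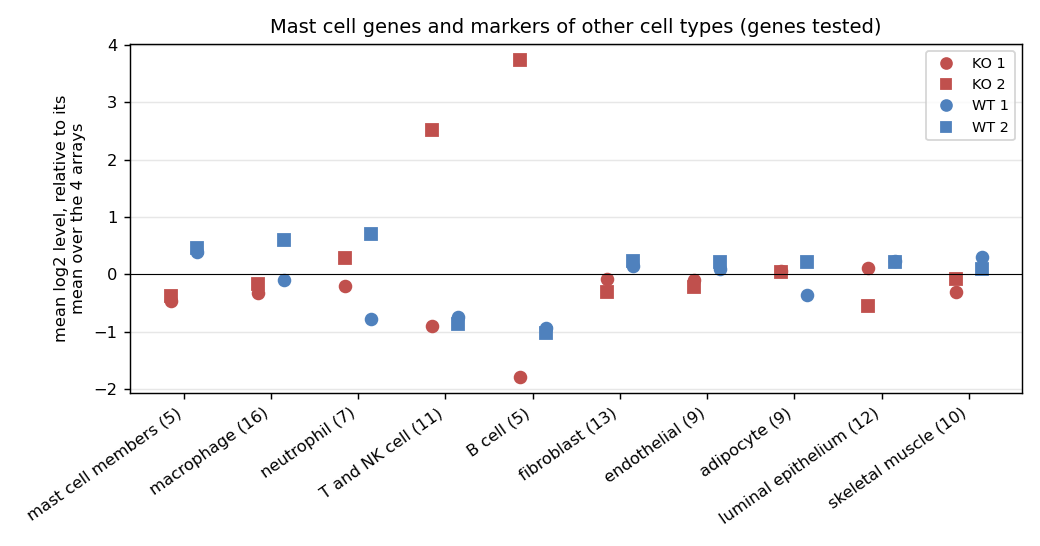
Mean log2 level of each list, relative to the mean over the 4 arrays (vertical axis), for KO arrays (red, left) and WT arrays (blue, right), circles for replicate 1 and squares for replicate 2, with the number of genes tested in brackets. The mast cell members lie at -0.47 and -0.38 on the KO arrays and at 0.40 and 0.45 on the WT arrays, while the B cell and T and NK cell lists stand high on KO 2 alone.

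The members' mean profile was shared by many other genes. It was -0.47 on KO 1 and -0.38 on KO 2, against 0.40 on WT 1 and 0.45 on WT 2, as log2 levels relative to the mean over the 4 arrays. By root mean square difference over the arrays, the 5 closest of 13230 other genes were Eps8l2, Klhl38, Chac1, Cpxm1 and Ppp1r36, at 0.03 to 0.07. Cpxm1 encodes a carboxypeptidase-like secreted protein and Chac1 a glutathione-degrading enzyme. Tpsb2 lay at 0.13 from the profile, where 67 other genes lay as close, and Cma1 at 0.21, where 313 did. Hdc lay at 0.38, where 3022 did, and this likeness is a description over 4 arrays.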

How the data were processed

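Cy3-labelled RNA of each sample was hybridised to 1 one-colour Agilent array. The authors deposited scanner files whose processed signal intensity was background-subtracted and detrended within the array with Agilent's Feature Extraction software. Its version was 11.5.1.1, per the file headers, whereas the submitters' processing notes name 10.7.3.1. They also deposited a table of log2 values with steps unstated. It matched quantile-normalized log2 signals centred on each probe's median (Pearson r of at least 0.99999 across probes), and its column medians were 0.00626 and -0.0096 for KO and -0.018 and 0.0183 for WT. One label field names other cells (EOC) and was not used.

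Spots flagged as outliers (35 to 73 per array) and control spots were left out, spots of a probe were averaged, and log2 signals were taken relative to each array's 75th percentile. A probe entered the test if both arrays of either group flagged it as well above background (24186 of 41174 probes), and a gene was represented by its brightest tested probe. Genes were named by accession through RefSeq (GRCm38.p6). KO and WT were tested in limma 3.58.1 (R 4.3.3) without covariates, and p-values were adjusted by Benjamini-Hochberg across every probe tested, at 0.05. An exact permutation test of 2 against 2 arrays cannot go below p = 0.333. The fit was tested on simulated data.

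The members and lists were chosen with earlier results of these data known. Genes named are all members, Stmn1, 11 further mast cell genes named outright (such as Kitl, Gata2 and Fcer1g), and in each other mast cell list those with an unadjusted p under 0.05 or the 2 largest differences. For other cell types up to 3 defining markers were eligible, and the 5 non-member genes nearest to the members' profile were named. Il3ra, Grb2, Inpp5d, Vamp8, Fn1, Clec10a, Trem2 and Ltf were chosen after their values were seen. Alternatives were other scalings, background correction, filters, probe rules, the variance trend, the replicate block and leaving out arrays. The number of arrays limits the precision.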

Additional observations from a re-analysis of the deposited data

How the results depend on the processing

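The results were recomputed under 15 alternatives, 1 of them (levels relative to the fibroblast list) chosen after seeing the data. All 70 recomputed differences of the 5 members kept their direction and none passed an adjusted p of 0.05. The count of genes past that threshold was 0 in both directions throughout, also at 0.1, except that 5 genes were lower in KO under median scaling, and the cause was not tested. The members' median was -0.87 as reported, -0.70 under median scaling, -0.48 with normexp and -0.49 relative to the fibroblast list, which also moved the median of all genes to 0.38. With 1 array left out it ran from -1.03 to -0.77. Normexp used the median spot signal, since the files hold no mean signal. Same-numbered samples deviated from their group means with a correlation of 0.06, and the labels link them by nothing else. With the replicate block the members' median was -0.87 as well, and 3 members in place of 4 had an unadjusted p under 0.05 and a lower KO level, against 2.42% of all genes. Without a filter on dim probes 2 did (2.58% of all genes), with normexp 2 (1.77%) and under median scaling 1 (1.02%). Probes near background, such as those of Ms4a2 and Fcer1a, limit what these arrays show of the receptor.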
